A study of Mus musculus with 12 samples.

Results

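The comparison described here set macrophages without LKB1 that had been given interleukin 4 (IL-4) against the same macrophages without it. It took in the 6 libraries labelled knockout (KO), 3 mock and 3 with IL-4, of 12 in the series, and the response was described over all 13715 genes of the deposited count table. KO marrow came from LysMCre Stk11 fl/fl mice, in which Cre recombinase is made from the lysozyme 2 (Lyz2) locus and acts in myeloid cells, and in which both copies of Stk11, the gene of LKB1, are flanked by loxP sites. Marrow was turned into bone marrow-derived macrophages over 7 days with M-CSF at 40 ng/ml, in the WT cultures too, and IL-4 was given at 20 ng/ml for 24 h. The wild-type (WT) libraries, 3 mock and 3 with IL-4, entered the same fit and so also shaped the spread behind each KO p-value. They were otherwise used to ask whether a response differed between the genotypes, and as a reference for Stk11 and Lyz2. The age and strain background of the mice were not given in the sources used here. Libraries are called culture 1, 2 and 3 after the numbers in their titles, and values in a row of 3 are always in that order.

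IL-4 is the cytokine of type 2 immunity. On macrophages it binds the IL-4 receptor α chain paired with the common γ chain or with the IL-13 receptor α1 chain. Receptor-bound JAK kinases then phosphorylate STAT6, which enters the nucleus and turns on the genes of alternative (M2) activation, among them arginase 1, chitinase-like proteins, resistin-like α and the mannose receptor. LKB1 is the kinase that switches on AMPK, the cell's energy sensor, and a family of AMPK-related kinases.

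Levels are given as TMM-scaled CPM, the counts of a gene relative to all counts of its library. Changes are log2 ratios of IL-4 over mock with their standard error (SE), and every adjusted p is from edgeR's quasi-likelihood test with Benjamini-Hochberg adjustment over the 13715 genes. A gene is said to have risen or fallen only at an adjusted p under 0.05. The KO libraries held 31971167 to 36572911 counts. The targeted gene Stk11 (ENSMUSG00000003068.16, chr10:80115803-80130682, mm10) was at 5.34, 3.87 and 8.77 CPM in KO mock and 8.31, 5.56 and 9.24 CPM in KO with IL-4, against 37.7 to 54.4 CPM over the 6 WT libraries. The table gives a single count per gene, so reads from exons that were not deleted are included in these values. Stk11 itself did not pass the test for IL-4 in KO (log2 change 0.36 ± 0.25, adjusted p 0.299), but passed with the culture number as a block (0.39, adjusted p 0.0176) and without the mock library of culture 3 (0.75, adjusted p 0.0259). The macrophage label was checked on 14 markers, all of them measured. The M-CSF receptor Csf1r was at 1802, 2009 and 2003 CPM in mock and 3136, 3485 and 3238 CPM with IL-4, and the F4/80 gene Adgre1 at 815, 771 and 823 CPM and 1248, 1234 and 1421 CPM. Of the 14, 6 rose, 4 fell and 4 were not called, with log2 changes from -2.16 to 3.08; the falls were 2 without the mock library of culture 3, without any 1 of the IL-4 libraries or with library size alone as the scaling. Lyz2, which was not called, was at 21618, 43.1 and 21044 CPM in mock and 15362, 43.4 and 15817 CPM with IL-4. Its log2 change was -0.45 ± 1.37 (adjusted p 0.835), or -0.32 with the block (adjusted p 0.00577) and -0.45 without culture 2 (adjusted p 0.00162). In WT it was at 44637, 42157 and 39652 CPM in mock and 28471, 29046 and 31113 CPM with IL-4. Both KO libraries of culture 2 therefore stand apart in Lyz2, but not in Csf1r or Adgre1. The Lyz2 locus is also where Cre is made in these mice, and the cause of its levels was not tested. For any gene, bulk RNA cannot tell fewer expressing cells from less RNA per cell.

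IL-4 changed the level of 4152 of 13715 genes in KO macrophages (30.3%). Of these, 2198 rose (16% of all genes) and 1954 fell (14.2%). These shares are the reference for the list counts in KO given below. At 2-fold or more, 661 genes had risen (4.82%) and 307 had fallen (2.24%). The large changes were rises: 237 genes rose and 44 fell by 4-fold or more, and 59 rose and 3 fell by 16-fold or more. The median log2 change was 0.64 among the rises and -0.45 among the falls. Of the 4152 genes, 4137 moved the same way in all 3 cultures. The genes were called from these same libraries, which favours such a result. In 2159 of the rises and 1917 of the falls no IL-4 library overlapped a mock library, where groups without overlap made up 23.5% of all genes upward and 24.2% downward. Across the 8126 genes whose log2 CPM averaged more than 3, the responses of the 3 cultures correlated with r of 0.906, 0.917 and 0.926, a description across genes that share their libraries. The first principal component of the 6 KO libraries over those genes held 79.8% of the variance and separated the 3 mock from the 3 IL-4 libraries, and the second held 9.87%. Without both libraries of culture 2, 1619 genes rose and 1311 fell. Among protein-coding genes 2011 of 11696 rose and 1869 fell; among long non-coding RNAs 109 of 1045 rose and 55 fell.

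**Figure D1:**
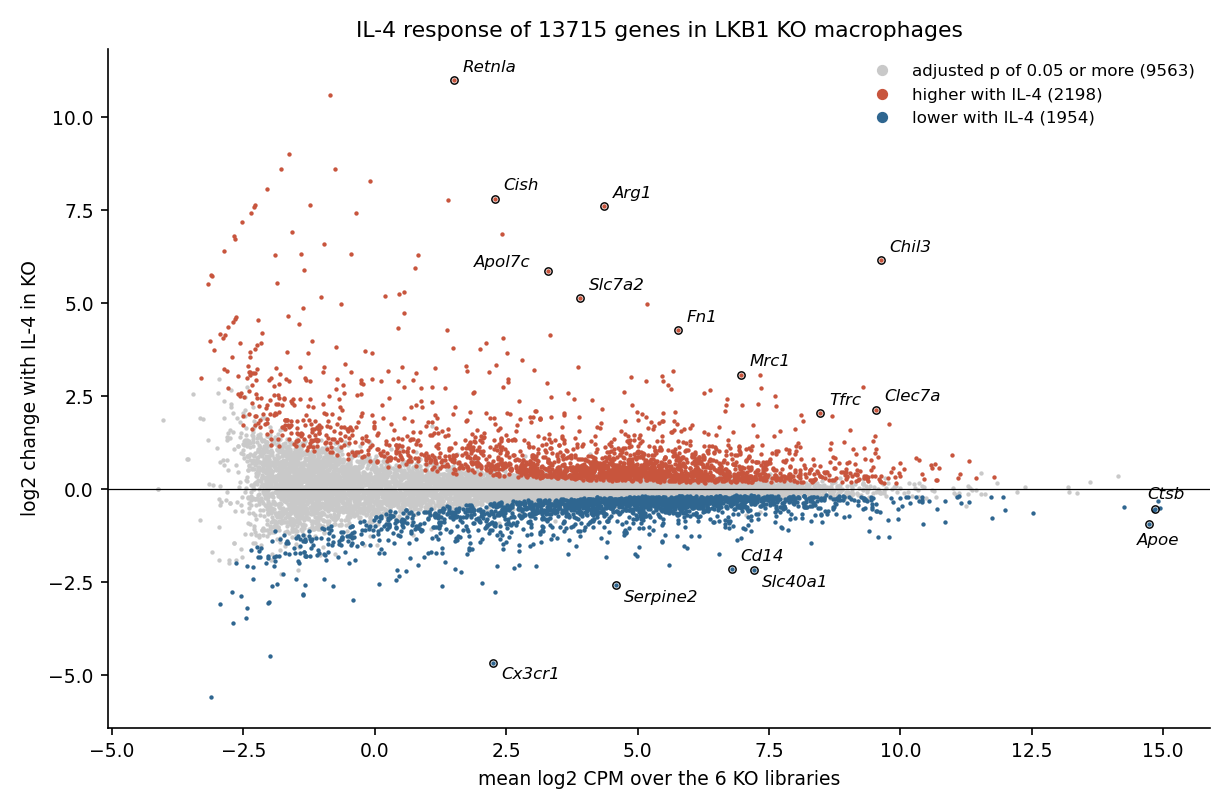
Each point is a gene, placed by its mean log2 CPM over the 6 KO libraries and its log2 change with IL-4 in KO; the 2198 genes that rose are red, the 1954 that fell blue. Rises reach further from 0 than falls, and the most counted of the labelled genes, Apoe and Ctsb, lie on the falling side. Fitted changes of genes with few mock counts depend on the prior count.

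The largest changes were ranked among called genes whose log2 CPM averaged at least 3 in KO and whose IL-4 and mock libraries did not overlap, so the absence of overlap is part of the choice. The largest rise was that of Arg1 (ENSMUSG00000019987.9, chr10:24915221-24927484), arginase 1, which splits arginine into ornithine and urea. Arg1 went from 2.23, 1.16 and 1.12 CPM to 279, 272 and 315 CPM, a 195-fold rise (log2 change 7.60 ± 0.17, adjusted p 1.74e-12). Chil3 (chr3:106147554-106167564), the secreted chitinase-like protein Ym1, rose from 72, 139 and 78 CPM to 5968, 6681 and 8059 CPM, or 71.7-fold (log2 change 6.16 ± 0.30, adjusted p 1.72e-09). Mock culture 2 was the highest of the mock libraries for Chil3. Apol7c, of the apolipoprotein L family, rose 58.1-fold, from 1.15, 1.38 and 1.3 CPM to 86.6, 80.9 and 56.2 CPM (log2 change 5.86 ± 0.21, adjusted p 8.51e-11). The cationic amino acid transporter Slc7a2, which brings arginine into macrophages, went from 2.16, 2.46 and 2.92 CPM to 81.3, 88.6 and 97.1 CPM (log2 change 5.14 ± 0.22, adjusted p 3.74e-10). Tmem26, a membrane protein, went from 5.48, 6.96 and 7.02 CPM to 179.9, 219 and 218 CPM (log2 change 4.98 ± 0.16, adjusted p 3.58e-11).

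Further down the same ranking, the matrix protein fibronectin, Fn1, rose from 7.8, 13.6 and 17.1 CPM to 204, 289 and 251 CPM (log2 change 4.27 ± 0.26, adjusted p 1.96e-08). Socs1, an inhibitor of JAK kinases, rose 17.7-fold (log2 change 4.15 ± 0.17, adjusted p 3.20e-10). Rises between 8.1-fold and 9.71-fold were measured for Plekhf1, an endosomal adaptor, Myrf, a membrane-bound transcription factor, the complement component C3, the mannose receptor Mrc1, the integrin chains Itgax (CD11c) and Itgb3, and the MHC class II chain H2-Eb1. Mrc1, a standard mark of alternative activation, went from 33.2, 47.6 and 50.2 CPM to 333, 351 and 425 CPM (log2 change 3.08 ± 0.17, adjusted p 9.10e-09). Itgax went from 42.9, 57.5 and 69.1 CPM to 395, 481 and 537 CPM (log2 change 3.06 ± 0.16, adjusted p 5.09e-09).

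**Figure D2:**
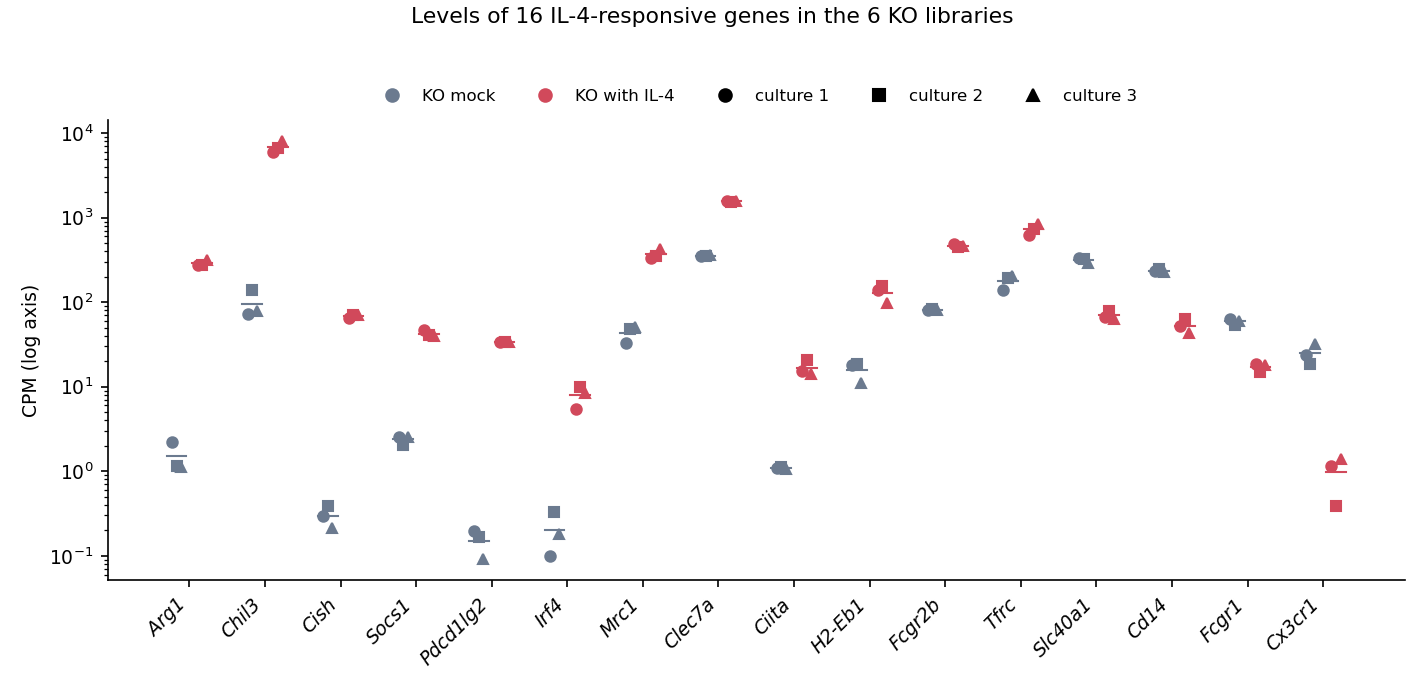
CPM (log axis) of 16 genes in the 6 KO libraries; grey marks are mock, red marks IL-4, the shape gives the culture and the line the mean of 3. For the first 12 genes all IL-4 marks lie above all mock marks, and for Slc40a1, Cd14, Fcgr1 and Cx3cr1 all lie below.

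In all, 11 genes went from 3 or fewer counts in every KO mock library to 1 CPM or more in every IL-4 library (gene models without an established name, ribosomal and histone genes left aside), and 0 genes went the other way. Retnla (chr16:48842551-48844461), resistin-like α or FIZZ1, a secreted protein of type 2 inflammation, had 0, 2 and 2 counts in the mock libraries and 73.2, 82.6 and 112 CPM with IL-4. The ratio of its summed counts was 2250 (95% interval 877 to 8240), with intervals here exact and for counting error only. All such ratios of summed counts are scaled for library size. Mgl2, a galactose-binding lectin, had a ratio of 352 (95% interval 120 to 1710) and reached 8.87, 13.4 and 9.24 CPM. For the Ras activator Rasgrp1 the ratio was 522 (95% interval 93.3 to 20700), and for the chemokine Ccl24 it was 94.4 (95% interval 25.8 to 785). These 4 genes had 1 to 4 mock counts in all, and their intervals are wide. Rbp4, the retinol carrier of plasma, had a ratio of 38.7 (95% interval 17.5 to 107), and the protease inhibitor Serpina3g one of 65.5 (95% interval 22.1 to 320). The sodium channel Scn3a and the chemokine Ccl17 had no count in any mock library and reached 3.2, 6.57 and 6.78 CPM and 1.24, 2.57 and 1.7 CPM. Against a floor of 3 counts per library they were at least 60.9-fold and at least 20.3-fold higher with IL-4.

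STAT6 binds palindromic sites, with 4 bases of any kind between TTC and GAA as its preferred spacing. This motif reads the same on both strands, and it was searched in the RefSeq promoter windows of mouse genes, 250 bases before to 50 after the start (GRCm38.p6). It was found in 669 of the 9918 genes of the table that have such a window (6.75%), in 46 of 421 genes that rose 2-fold or more (10.9%) and in 13 of 227 that fell 2-fold or more (5.73%). Of the 14 largest rises 9 have a window and 4 of these hold the motif; of the 14 largest falls 9 have a window and 0 hold it. The 250 bases before the start are shown for 4 of the named genes that hold it, by size of change, since these are the sequences beside large rises, with the motif in capitals and the strand of the gene read 5′ to 3′.
Retnla: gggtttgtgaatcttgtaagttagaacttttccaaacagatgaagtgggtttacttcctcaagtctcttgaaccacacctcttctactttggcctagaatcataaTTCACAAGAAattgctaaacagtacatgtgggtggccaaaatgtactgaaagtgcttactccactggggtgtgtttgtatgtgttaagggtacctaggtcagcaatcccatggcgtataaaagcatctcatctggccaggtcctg
Apol7c: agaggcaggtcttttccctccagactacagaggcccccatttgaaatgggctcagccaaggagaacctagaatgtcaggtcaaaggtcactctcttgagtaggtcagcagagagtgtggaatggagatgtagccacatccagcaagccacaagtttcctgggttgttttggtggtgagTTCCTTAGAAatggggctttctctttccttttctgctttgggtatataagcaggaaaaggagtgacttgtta
Tmem26: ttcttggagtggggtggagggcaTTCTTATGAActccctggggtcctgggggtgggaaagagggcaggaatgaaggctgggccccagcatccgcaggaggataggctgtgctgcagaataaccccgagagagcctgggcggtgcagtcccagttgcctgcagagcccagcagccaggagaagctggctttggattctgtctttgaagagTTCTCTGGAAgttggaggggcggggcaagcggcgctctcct
Plekhf1: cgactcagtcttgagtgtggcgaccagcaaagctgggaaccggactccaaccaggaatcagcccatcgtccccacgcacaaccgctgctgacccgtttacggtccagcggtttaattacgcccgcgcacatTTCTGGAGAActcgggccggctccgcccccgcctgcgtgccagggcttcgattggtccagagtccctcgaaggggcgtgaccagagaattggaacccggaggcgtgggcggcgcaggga
Retnla is not among the 14 largest rises. Its window is chr16:48842359-48842608, plus strand, with the motif at -145 from the RefSeq start, which lies inside the gene span given above. Apol7c's is chr15:77533316-77533565, minus strand, with the motif at -72. Tmem26's is chr10:68723496-68723745, plus strand and holds 2 motifs, at -227 and -41. Plekhf1's is chr7:38227995-38228244, minus strand, with the motif at -119. A match describes these letters and says nothing about whether STAT6 was bound there.

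Among the genes of IL-4 reception and its feedback, 12 of 27 measured rose and 2 fell (median log2 change 0.21; 0.00 over all genes). The large changes were in the feedback inhibitors. Cish, a SOCS-family inhibitor of cytokine receptors, went from 0.295, 0.387 and 0.211 CPM to 64.2, 70.3 and 69.8 CPM (224-fold; log2 change 7.81 ± 0.19, adjusted p 2.42e-12). Socs2 rose 8.82-fold (log2 change 3.14 ± 0.14, adjusted p 5.87e-10) and Socs3 2.24-fold (log2 change 1.16 ± 0.18, adjusted p 0.000259), beside the Socs1 rise above. The kinase Jak2 went from 24.9, 33 and 30.5 CPM to 88.4, 104 and 107 CPM (log2 change 1.76 ± 0.15, adjusted p 5.42e-07), and the common γ chain Il2rg from 45.7, 55.5 and 44.5 CPM to 101, 97.5 and 92.6 CPM (log2 change 1.0 ± 0.09, adjusted p 1.62e-06). The adaptor Shc1 and the PI3-kinase subunit Pik3r1 rose by 0.73 ± 0.07 and 0.41 ± 0.09 log2. The receptor α chain Il4ra was at 203, 204 and 184 CPM in mock and 182, 194 and 167 CPM with IL-4 (log2 change -0.12 ± 0.10, adjusted p 0.371) and was not called, except as lower with the length offsets and the block. Jak1 rose from 290.0, 346 and 306 CPM to 368, 433 and 414 CPM (log2 change 0.37 ± 0.12, adjusted p 0.027), a call lost without mock 1, mock 3, IL-4 2 or IL-4 3 and without both libraries of culture 2, and Jak3 was not called (log2 change 0.14 ± 0.10, adjusted p 0.318). The other receptor partner, Il13ra1, fell from 21.7, 27.4 and 24 CPM to 14.5, 18.3 and 16.5 CPM (log2 change -0.57 ± 0.11, adjusted p 0.00166). Stat6 was at 415, 426 and 426 CPM in mock and 371, 407 and 387 CPM with IL-4 (log2 change -0.12 ± 0.08, adjusted p 0.258) and did not pass the test. The falls in the list of IL-4 receptor, STAT6 and feedback genes were 4 with the culture number as a block, 5 with offsets for gene length, 6 with both, 1 with library size alone as the scaling, and 1 without the mock library of culture 1 or the IL-4 library of culture 1 or 3.

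The secreted proteins and lectins that mark alternative activation rose in 14 of 24 measured genes and fell in 6 (median 1.02). Besides Arg1, Retnla, Chil3, Mgl2, Mrc1 and Fn1, the β-glucan receptor Clec7a (dectin-1) rose from 353, 349 and 362 CPM to 1574, 1531 and 1576 CPM (log2 change 2.14 ± 0.09, adjusted p 3.27e-10). The eosinophil-type ribonuclease Ear2 rose 7.21-fold (log2 change 2.85 ± 0.15, adjusted p 2.94e-09). Rnase2a, of the same ribonuclease family, had no mock count and was at least 10.6-fold higher. Chil4, the chitinase-like protein Ym2, had 1 mock count in all and a ratio of 165 (95% interval 29.3 to 6560). The growth factor Igf1 went from 393, 346 and 394 CPM to 819, 739.7 and 847 CPM (log2 change 1.09 ± 0.08, adjusted p 1.16e-07), and Tgfb1, Tgfbi and the lectin Clec10a rose by 0.52 ± 0.08, 0.96 ± 0.13 and 1.12 ± 0.18 log2. In the other direction, F13a1, the transglutaminase that cross-links fibrin, fell from 5.84, 6.99 and 5.94 CPM to 1.15, 2.27 and 2.13 CPM (log2 change -1.75 ± 0.24, adjusted p 7.72e-05). The scavenger receptor Stab1 fell by 1.43-fold (log2 change -0.52 ± 0.12, adjusted p 0.00502), and Vegfa, the angiogenic growth factor, fell from 142, 158 and 115 CPM to 87.7, 91.6 and 68.7 CPM (log2 change -0.74 ± 0.14, adjusted p 0.000855). Without the IL-4 library of culture 3, 3 genes of the list fell rather than 6.

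Enzymes that act on arginine, prostaglandins and related substrates rose in 11 of 26 measured genes and fell in 5. Ptgs1, cyclooxygenase 1, went from 17.6, 18 and 18.3 CPM to 124, 116 and 137 CPM (log2 change 2.81 ± 0.12, adjusted p 3.27e-10). Hpgds, which makes prostaglandin D2, went the other way, from 204, 194 and 197 CPM to 81.7, 76.6 and 81.3 CPM (log2 change -1.31 ± 0.06, adjusted p 1.75e-09). Acod1, which makes itaconate and is best known from endotoxin-stimulated macrophages, rose from 0.656, 0.718 and 0.693 CPM to 7.32, 8.27 and 4.4 CPM (log2 change 3.26 ± 0.26, adjusted p 2.71e-07). With the culture number as a block 8 genes of the list fell (9 in the KO libraries alone with the block), and 3 fell without the mock library of culture 1.

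Transcription factors of the IL-4 program rose in 19 of 35 measured genes and fell in 5 (median 0.34). The rises were 14 without both libraries of culture 2, and 16 to 21 when 1 library was left out. Irf4, the interferon regulatory factor of type 2 macrophages, went from 0.0984, 0.331 and 0.181 CPM to 5.52, 9.995 and 8.48 CPM (37.6-fold; log2 change 5.23 ± 0.32, adjusted p 1.96e-08). Batf3, a partner of IRF and AP-1 factors, rose 13.7-fold (log2 change 3.77 ± 0.18, adjusted p 2.11e-09), and Nfil3, a basic leucine zipper repressor, 7.43-fold (log2 change 2.89 ± 0.12, adjusted p 3.20e-10). Bhlhe40, a basic helix-loop-helix repressor, varied little within each group and rose from 145, 148 and 145 CPM to 438, 451 and 445 CPM (log2 change 1.61 ± 0.05, adjusted p 4.99e-11). Klf4, which works with STAT6 in mouse macrophages, went from 0.885, 0.829 and 1.02 CPM to 4.62, 4.66 and 4.54 CPM (log2 change 2.33 ± 0.20, adjusted p 7.34e-07). Pparg, the nuclear receptor of lipid metabolism, rose from 39.1, 34.6 and 37.1 CPM to 71.7, 73.1 and 71.7 CPM (log2 change 0.97 ± 0.07, adjusted p 1.65e-07), and its coactivator Ppargc1b from 4.43, 4.61 and 4.61 CPM to 17.3, 16.5 and 16.5 CPM (log2 change 1.88 ± 0.11, adjusted p 1.08e-08). The proto-oncogene Myc, the NF-κB subunit Rel and the MiT factors Tfec and Mitf rose by 1.67 ± 0.15, 1.29 ± 0.16, 1.43 ± 0.17 and 1.15 ± 0.15 log2, and Fosl2, Hlx and Ets2 by 0.87 ± 0.12, 0.53 ± 0.10 and 0.44 ± 0.09. The 5 that fell were Maf, a driver of the resident macrophage state, which went from 34.2, 38.2 and 35.4 CPM to 20.7, 17.6 and 18.1 CPM (log2 change -0.93 ± 0.10, adjusted p 5.58e-06), and Id3, Bhlhe41, Klf6 and the oxysterol receptor Nr1h3 (LXRα), at -0.73 ± 0.17, -0.56 ± 0.10, -0.48 ± 0.06 and -0.46 ± 0.09 log2.

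Antigen presentation by MHC class II rose as a group: 7 of 10 measured genes rose and 1 fell (median 2.15), the fall being lost in 15 of the 23 alternatives. Ciita, the master activator of class II genes, went from 1.08, 1.13 and 1.06 CPM to 15.3, 20.8 and 14.1 CPM (log2 change 3.93 ± 0.21, adjusted p 3.95e-09). The chains H2-Eb1 and H2-Ab1 went from 18.2, 18.5 and 11 CPM to 138, 154 and 96.7 CPM and from 81.8, 75.5 and 40.8 CPM to 452, 513 and 332 CPM, with log2 changes of 3.03 ± 0.22 and 2.71 ± 0.24. Culture 3 had the lowest value of both chains with and without IL-4. H2-DMa, a chaperone of peptide loading, went from 42.7, 34.6 and 31.8 CPM to 115, 118 and 110.3 CPM (log2 change 1.65 ± 0.12, adjusted p 1.59e-07). On the class I side 14 of 21 rose and 0 fell (median 0.46), or 8 without the IL-4 library of culture 1. Rises were smaller there: Tapbp (tapasin), H2-T23, the immunoproteasome subunit Psmb10 and the trimming peptidase Erap1 rose by 0.85 ± 0.05, 1.08 ± 0.10, 1.18 ± 0.11 and 0.70 ± 0.09 log2. The PD-1 ligand Pdcd1lg2 (PD-L2) rose from near 0, from 0.197, 0.166 and 0.0904 CPM to 34.2, 33.9 and 33.7 CPM (220.4-fold; log2 change 7.78 ± 0.20, adjusted p 2.42e-12). The other PD-1 ligand, Cd274 (PD-L1), went from 109, 139.5 and 118 CPM to 356, 384 and 339 CPM (log2 change 1.56 ± 0.12, adjusted p 2.37e-07). Cd40 rose and Icosl, the ligand of the costimulator ICOS, fell, with log2 changes of 1.5 ± 0.23 and -2.98 ± 0.28.

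Chemokine genes moved in both directions. Among CC chemokines 7 of 13 rose and 2 fell (median 1.98), and this median was the same with Ccl17 at its lower bound. Ccl22, a ligand of CCR4 like Ccl17, went from 0.197, 0.304 and 0.301 CPM to 5.77, 11 and 4.86 CPM (log2 change 4.72 ± 0.41, adjusted p 7.01e-07). Ccl9 and Ccl6, abundant macrophage chemokines of the mouse, went from 75, 118 and 83.8 CPM to 423, 454 and 433 CPM and from 168, 142 and 112 CPM to 667, 514 and 481 CPM, with log2 changes of 2.24 ± 0.18 and 1.98 ± 0.17. Ccl3, an inflammatory chemokine, fell from 9.71, 8.62 and 9.32 CPM to 3.6, 3.53 and 3.16 CPM (log2 change -1.42 ± 0.13, adjusted p 1.54e-06), and the CXC chemokine Cxcl14 fell from 43.2, 44.1 and 36.3 CPM to 19.4, 19.9 and 16.1 CPM (log2 change -1.16 ± 0.12, adjusted p 4.20e-06). Of 25 measured chemoattractant receptors 8 rose and 10 fell. Cx3cr1, the fractalkine receptor, had the largest fall, from 23.8, 18.8 and 32.1 CPM to 1.15, 0.383 and 1.41 CPM (25.4-fold lower; log2 change -4.67 ± 0.31, adjusted p 4.33e-08). Cxcr3 fell from 12.6, 12 and 13.1 CPM to 1.83, 1.59 and 2.08 CPM (log2 change -2.78 ± 0.19, adjusted p 6.19e-08). The sphingosine phosphate receptor S1pr1 went from 193, 180.3 and 197 CPM to 74, 69.9 and 77.4 CPM and the C5a receptor C5ar1 from 1211, 1109 and 1250.4 CPM to 504, 472 and 488 CPM, with log2 changes of -1.37 ± 0.08 and -1.29 ± 0.08.

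Genes of macrophage fusion and of osteoclasts, which are fused cells of the same lineage, rose in 14 of 28 measured and fell in 2. The falls were 4 without the IL-4 library of culture 2, 1 without any other single KO library, without both of culture 2 or with library size alone, and 4 with the length offsets and the block or in the KO libraries alone with the block. Ocstamp, needed for fusion, went from 0.557, 0.47 and 0.422 CPM to 33.8, 79.5 and 55.3 CPM (116-fold; log2 change 6.86 ± 0.34, adjusted p 2.18e-09), with culture 2 the highest. E-cadherin, Cdh1, which joins IL-4-treated mouse macrophages, went from 0.0984, 0.138 and 0.0301 CPM to 2.26, 3.53 and 3.08 CPM (log2 change 4.99 ± 0.44, adjusted p 8.35e-07). Acp5, the tartrate-resistant acid phosphatase, rose from 139, 145 and 145 CPM to 270.4, 313 and 284 CPM (log2 change 1.01 ± 0.07, adjusted p 7.58e-08). The V-ATPase subunits Atp6v0d2 and Atp6v0a1 rose by 0.65 ± 0.07 and 1.27 ± 0.09 log2. In the integrin and adhesion list 14 of 35 rose and 9 fell, with Itgam (CD11b) and Pecam1 (CD31) among the rises, at 0.89 ± 0.13 and 2.36 ± 0.18 log2. Matrix genes rose in 8 of 30 and fell in 7, the falls being 4 without the IL-4 library of culture 1, in the KO libraries alone or among genes averaging at least 1 CPM. The metalloproteinases Mmp19 and Mmp13 rose by 1.73 ± 0.15 and 0.86 ± 0.12 log2.

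Surface receptors for pathogens and debris moved both ways within their families, with 2 of 9 measured Fc receptors higher and 4 lower. Of 23 C-type lectin receptors 11 rose and 4 fell; Clec4a3 went from 56.1, 52.8 and 48.9 CPM to 164, 168 and 167 CPM (log2 change 1.66 ± 0.09, adjusted p 9.34e-09) and the inhibitory receptor Clec12a fell from 188, 143 and 191 CPM to 58.7, 38.4 and 59.7 CPM (log2 change -1.73 ± 0.15, adjusted p 6.25e-07). The inhibitory Fc receptor Fcgr2b went from 81.5, 83.4 and 80.4 CPM to 488, 452 and 464 CPM (log2 change 2.52 ± 0.08, adjusted p 2.47e-11), whereas the activating high-affinity receptor Fcgr1 (CD64) fell from 62.9, 54.4 and 60.4 CPM to 18.5, 14.8 and 18.1 CPM (log2 change -1.79 ± 0.10, adjusted p 5.77e-09). Fcrl1, an Fc receptor-like protein, fell from 6.23, 4.53 and 6.81 CPM to 0.900, 0.876 and 1.11 CPM (log2 change -2.60 ± 0.19, adjusted p 1.23e-07), and Fcrls rose by 0.95 ± 0.20 log2. Among scavenger and uptake receptors 6 of 26 rose and 9 fell. Gas6, the ligand that bridges dying cells to MERTK and AXL, fell from 549, 493 and 513 CPM to 201, 194 and 176 CPM (log2 change -1.45 ± 0.10, adjusted p 5.74e-08). The oxidized LDL receptor Olr1 rose from 0.951, 1.55 and 0.844 CPM to 7.91, 12.2 and 10.4 CPM (log2 change 3.17 ± 0.23, adjusted p 1.23e-07), and the collectin Colec12 fell by 1.65-fold (log2 change -0.72 ± 0.09, adjusted p 2.85e-05).

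Genes of classical activation were mixed, with 13 of 28 measured higher and 7 lower (median 0.23). Cd14, the co-receptor for lipopolysaccharide, fell from 232, 249 and 226 CPM to 51.8, 63.9 and 42.9 CPM (log2 change -2.16 ± 0.14, adjusted p 4.52e-08), and Tlr2 fell from 48, 59.9 and 51.3 CPM to 25.7, 28.3 and 24.4 CPM (log2 change -1.02 ± 0.10, adjusted p 3.19e-06). The signalling kinase Irak2 fell by 1.6-fold (log2 change -0.68 ± 0.07, adjusted p 3.37e-06). Tlr8 rose from 82.9, 98.3 and 105 CPM to 193, 201 and 219 CPM (log2 change 1.1 ± 0.14, adjusted p 3.40e-05). In the list of Toll-like receptors and adaptors 5 of 28 were higher and 7 lower (17.9% and 25%, against 16% and 14.2% of all genes). Irf1 and the guanylate-binding protein Gbp2, both known from interferon γ, rose by 1.54 ± 0.09 and 1.90 ± 0.14 log2. Interferon-stimulated genes rose in 14 of 38 and fell in 3, among the rises Zbp1, a sensor of left-handed nucleic acid, which went from 5.28, 3.43 and 3.56 CPM to 21.5, 17.5 and 13.1 CPM (log2 change 2.09 ± 0.20, adjusted p 2.01e-06). Usp18, Oas3 and Ifi204 rose by 1.33 ± 0.15, 1.07 ± 0.13 and 0.82 ± 0.09 log2. The falls in that list were 1 rather than 3 without the mock library of culture 1 or 3 or the IL-4 library of culture 2 or 3, without both libraries of culture 2, with library size alone and with the length offsets, alone or with the block. In the IL-1 family 7 of 20 rose and 2 fell; the IL-36 receptor Il1rl2 went from 4.56, 3.62 and 4.67 CPM to 22.9, 22.9 and 26 CPM (log2 change 2.49 ± 0.13, adjusted p 3.95e-09), and Il1r1, Mefv and Pycard rose by 3.14 ± 0.35, 0.92 ± 0.12 and 0.59 ± 0.08 log2.

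**Figure D3:**
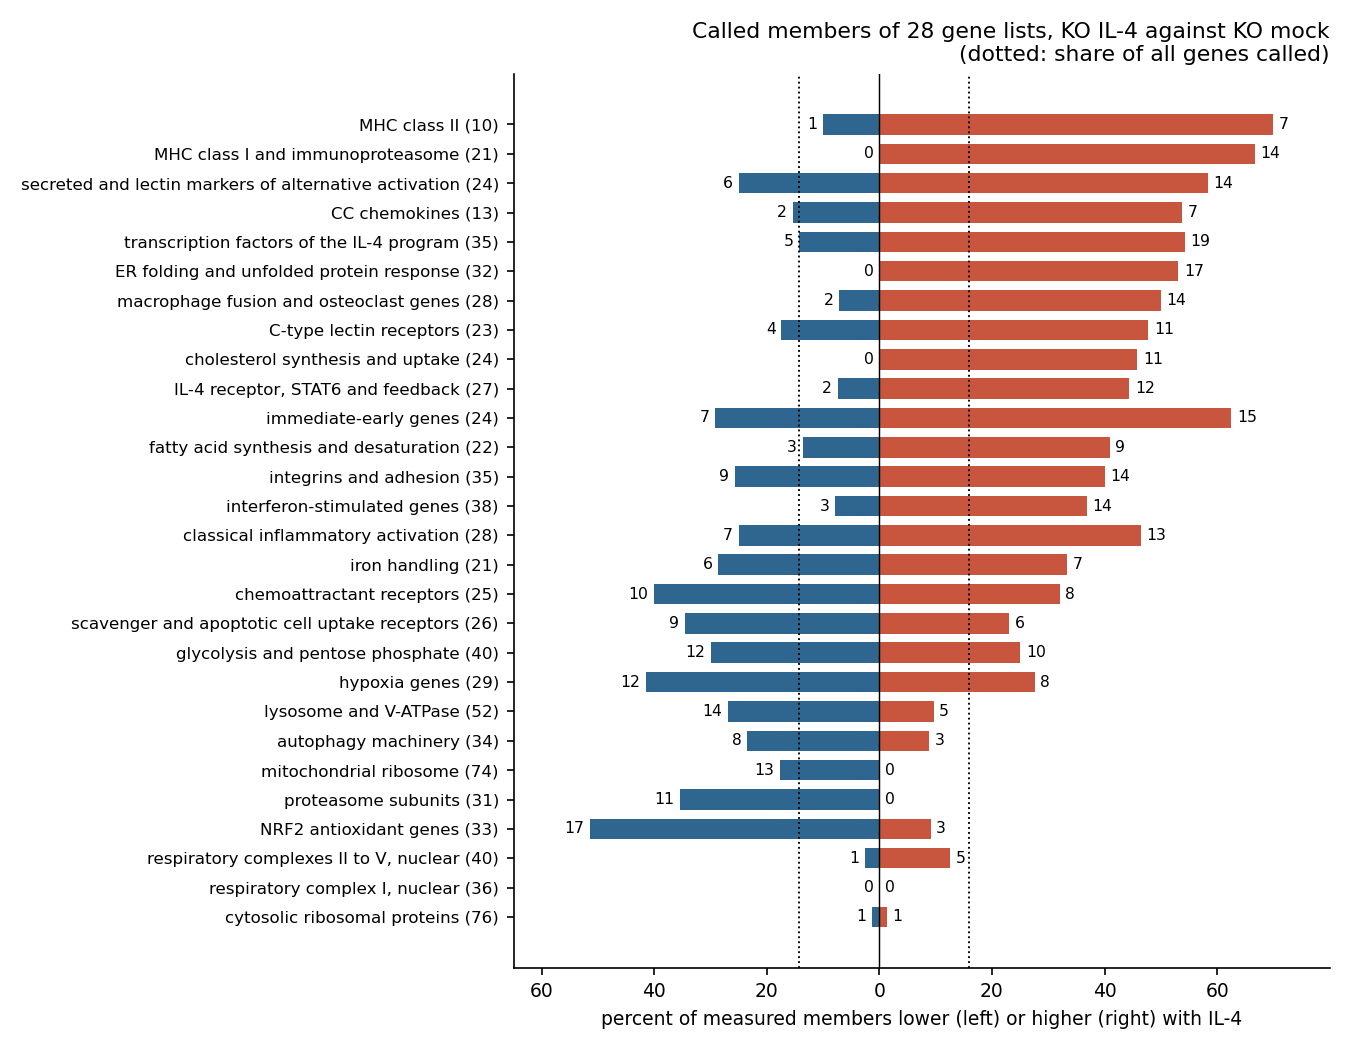
Bars give the percent of measured members of 28 gene lists that rose (right) or fell (left) with IL-4 in KO, with the count at each bar's end and the number measured in brackets; dotted lines mark the shares of all genes, 16% and 14.2%. MHC class II reaches 70% higher, the NRF2 list 51.5% lower, and respiratory complex I has no called member.

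Of 33 measured genes of the NRF2 antioxidant program 17 fell and 3 rose (median -0.22), and the falls numbered 15 to 18 when any 1 library was left out. The rises were 5 with the length offsets and 6 with these and the block. Gsta3, a glutathione transferase, went from 58.5, 60.2 and 52.6 CPM to 18.9, 18.4 and 13.9 CPM (log2 change -1.74 ± 0.15, adjusted p 6.89e-07). The peroxide-reducing enzyme Prdx6 went from 185, 183 and 170.4 CPM to 106, 108 and 105 CPM (log2 change -0.76 ± 0.07, adjusted p 9.25e-07). Ferroportin, Slc40a1, the only known iron exporter, fell from 334, 325 and 293 CPM to 67.4, 79.1 and 62.6 CPM (4.55-fold lower; log2 change -2.19 ± 0.11, adjusted p 3.95e-09). Iron genes as a list rose in 7 of 21 and fell in 6. The falls outnumbered the rises without the mock library of culture 1 or the IL-4 library of culture 2 or 3, and with the block (9 falls, 7 rises). The transferrin receptor Tfrc, which takes iron in, went from 140.4, 191 and 201 CPM to 617, 736 and 848 CPM (log2 change 2.05 ± 0.21, adjusted p 3.82e-06), and the ferritin heavy chain Fth1, which stores it, fell from 38178, 33986 and 33787 CPM to 25107, 24062 and 22787 CPM (log2 change -0.56 ± 0.10, adjusted p 0.000564). The phagosomal iron pump Slc11a1 (NRAMP1) fell from 1230.3, 1168 and 1099 CPM to 673, 675 and 604 CPM (log2 change -0.84 ± 0.06, adjusted p 2.29e-07), and Hfe, a regulator of iron uptake, rose by 0.81 ± 0.07 log2.

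Fatty acid synthesis genes rose in 9 of 22 and fell in 3; the desaturase Scd2 went from 24, 35.7 and 40.2 CPM to 84.3, 102 and 111 CPM (log2 change 1.57 ± 0.16, adjusted p 3.84e-06), and Agpat3, Acaca and Lpin1 rose by 0.83 ± 0.07, 0.91 ± 0.18 and 0.50 ± 0.10 log2. In cholesterol synthesis and uptake 11 of 24 rose and 0 fell. That count was 4, 7 and 6 without the mock library of culture 1, the mock library of culture 2 or the IL-4 library of culture 3, and 4 without both libraries of culture 2; a single gene fell without WT IL-4 2, with the length offsets and the block, and in the KO libraries alone with the block. Dhcr7, of the last step of cholesterol synthesis, rose from 52.1, 54 and 57.4 CPM to 137, 156 and 157 CPM (log2 change 1.46 ± 0.07, adjusted p 2.20e-09); Mvd and Srebf2 rose by 0.69 ± 0.09 and 0.73 ± 0.15 log2. Genes of the oxysterol receptor LXR and cholesterol efflux rose in 4 of 16 and fell in 5, among them the transporter Abcg1 at 0.73 ± 0.09 log2 and the ubiquitin ligase Mylip and the lipid transfer protein Pltp at -0.91 ± 0.11 and -0.80 ± 0.11. Plin2, the coat protein of lipid droplets, fell from 8209, 6987 and 6988 CPM to 4909.6, 4836 and 4497 CPM (log2 change -0.64 ± 0.10, adjusted p 0.000218). In the fatty acid oxidation list, with 39 measured, rises numbered 6 and falls 5 (15.4% and 12.8%). These lay near the shares of all genes, 16% and 14.2%. With the block they were 10 and 8, where 2784 and 2500 of all 13715 genes were called. In the KO libraries alone with the block they were 13 and 9, where 3003 and 2661 of 12954 genes were called. The rises were 10 with the length offsets and 11 with these and the block, and the falls 3 with library size alone. Without both libraries of culture 2 they were 3 and 1, and the falls were 1 and 2 without the mock library of culture 1 or the IL-4 library of culture 3. Hadha and Crat rose by 0.47 ± 0.07 and 0.42 ± 0.06 log2.

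Endoplasmic reticulum folding genes rose in 17 of 32 measured and fell in 0 (median 0.26), or rose in 10 without the IL-4 library of culture 2 and in 8 without both libraries of culture 2, with 1 fall under the length offsets. The disulfide isomerase Pdia4 led them, from 145, 156 and 147 CPM to 530.1, 568 and 512 CPM (log2 change 1.84 ± 0.07, adjusted p 1.61e-10). The chaperones Hyou1, Creld2 and calreticulin, Calr, rose by 1.23 ± 0.17, 0.55 ± 0.07 and 0.45 ± 0.08 log2. Glycolysis and pentose phosphate genes went both ways, 10 of 40 higher and 12 lower, with Aldoa present under 2 identifiers. The phosphofructokinase isoforms parted: Pfkp rose from 124, 119 and 126 CPM to 186, 215 and 207 CPM (log2 change 0.72 ± 0.07, adjusted p 1.65e-06) and Pfkl fell from 225, 199 and 199 CPM to 123, 121 and 110.1 CPM (log2 change -0.82 ± 0.08, adjusted p 2.49e-06). Pfkfb3, whose product activates phosphofructokinase, fell from 60.9, 52.5 and 58.2 CPM to 26.6, 26.3 and 26.8 CPM (log2 change -1.11 ± 0.10, adjusted p 1.17e-06), and its relative Pfkfb4 rose from 62.6, 68 and 59.1 CPM to 104, 109.6 and 109 CPM (log2 change 0.76 ± 0.09, adjusted p 1.77e-05). The lysosomal sugar transporter Slc2a6 rose by 4.41-fold (log2 change 2.14 ± 0.17, adjusted p 4.02e-07). Hypoxia genes fell in 12 of 29, P4ha2 and Mxi1 among them at -1.41 ± 0.14 and -0.45 ± 0.07 log2, and rose in 8. Those rises were 5 without the IL-4 library of culture 2 and 4 without both libraries of culture 2.

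In the fit of all libraries, immediate-early and growth-control genes changed in nearly all measured cases, 15 of 24 up and 7 down. Without both libraries of culture 2 the rises were 10 and the falls 6. The rises were 11 to 15 when 1 library was left out. Ier3 rose from 13.2, 14.9 and 12.9 CPM to 67.6, 63.6 and 64.3 CPM (log2 change 2.25 ± 0.12, adjusted p 3.16e-09), whereas Fos fell from 250.2, 273 and 278 CPM to 131, 155 and 146 CPM (log2 change -0.89 ± 0.08, adjusted p 1.13e-06) and the orphan nuclear receptor Nr4a1 fell from 40.5, 43.6 and 39.1 CPM to 18.4, 23.9 and 17.2 CPM (log2 change -1.05 ± 0.12, adjusted p 1.50e-05). CREB and CRTC targets, which LKB1-dependent salt-inducible kinases are known to hold down, rose in 12 of 26 and fell in 7. The phosphodiesterase Pde4b rose from 14.6, 16 and 14.3 CPM to 41.8, 46.8 and 43.3 CPM (log2 change 1.55 ± 0.10, adjusted p 4.01e-08), and Dusp1 fell by 1.6-fold (log2 change -0.68 ± 0.10, adjusted p 9.26e-05). Among p53 targets 7 of 25 rose and 4 fell (28% and 16%). Of these targets, the kinase Plk3 rose from 30.4, 28.5 and 29.8 CPM to 87.6, 81.7 and 85.8 CPM (log2 change 1.52 ± 0.08, adjusted p 2.97e-09) and Gadd45a fell from 108, 94.8 and 97.6 CPM to 43.4, 41.6 and 39.9 CPM (log2 change -1.27 ± 0.12, adjusted p 2.27e-06). The rises there were 3, 4 and 3 without the mock library of culture 1, the IL-4 library of culture 2 or the IL-4 library of culture 3. The cell-cycle inhibitors moved in opposite directions, Cdkn1a by 0.72 ± 0.10 and Cdkn1c by -1.66 ± 0.22 log2. Replication and mitosis genes gave few stable calls. In the G2 phase and mitosis list 7 of 44 rose and 3 fell (15.9% and 6.82%), where 16% and 14.2% of all genes did. The rises ranged from 1 to 16 when 1 library was left out. They were 1, 1, 2 and 2 without mock 1, mock 2, IL-4 2 or IL-4 3, 16 without mock 3, 1 without both libraries of culture 2, 4 in the KO libraries alone and 11 with the length offsets and the block. Of its members Kif4 rose by 1.59 ± 0.31 log2, and Pttg1 and Cdc25b fell, with changes of -0.55 ± 0.11 and -0.41 ± 0.11 log2.

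The largest fall, by the same ranking, was that of Serpine2, a secreted protease inhibitor, from 60.4, 42.2 and 84.5 CPM to 7.1, 7.09 and 17 CPM (5.97-fold lower; log2 change -2.58 ± 0.34, adjusted p 5.01e-05). Slc40a1 and Cd14 followed. Adra1a, an α1-adrenergic receptor, fell from 17.1, 16.3 and 17.9 CPM to 3.85, 4.33 and 4.0 CPM (log2 change -2.07 ± 0.13, adjusted p 3.68e-08), and caveolin 1, Cav1, fell from 83.6, 115 and 100.2 CPM to 21.3, 27.2 and 23.9 CPM (log2 change -2.04 ± 0.15, adjusted p 1.03e-07). Klhl6, a ubiquitin ligase adaptor of lymphoid and myeloid cells, the plasma glutathione peroxidase Gpx3, the IGF-binding protein Igfbp4, neuronal pentraxin Nptx1, the junction protein Cgnl1 and Mamdc2 fell between 2.86-fold and 3.53-fold. Igfbp4 went from 114, 96.5 and 109 CPM to 39.9, 33.1 and 34.1 CPM (log2 change -1.58 ± 0.09, adjusted p 1.04e-08). Nptx1 differed most between cultures, from 35.5, 60.5 and 83.1 CPM to 11.7, 20.8 and 28.4 CPM (log2 change -1.55 ± 0.31, adjusted p 0.0016), and fell in each.

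The most counted genes of IL-4-treated KO macrophages included lysosomal and lipid-handling genes. Of the 6 most counted, Gpnmb, Ctsd, Ctsb, Fth1 and Apoe fell and Psap was not called. Apoe, apolipoprotein E, went from 45508, 31469 and 37762 CPM to 23109, 17364 and 19332 CPM (log2 change -0.94 ± 0.14, adjusted p 0.000123). The cathepsins Ctsd and Ctsb went from 38873, 36152 and 37158 CPM to 26451, 26693 and 25613 CPM and from 38997, 34003 and 34004 CPM to 24491, 24849.6 and 24319.6 CPM, with log2 changes of -0.51 ± 0.08 and -0.54 ± 0.08. Gpnmb, a glycoprotein of lysosome-rich macrophages, fell from 34661, 34643 and 33629 CPM to 26695, 29013 and 27128 CPM (log2 change -0.31 ± 0.07, adjusted p 0.00326). Psap, the precursor of the saposins, which help lysosomal enzymes break down sphingolipids, was at 18253, 16340.1 and 14134 CPM in mock and 21398, 23531 and 17107 CPM with IL-4, where the groups overlapped (log2 change 0.35 ± 0.14, adjusted p 0.0772). It was called higher in 8 of the 23 alternatives, the block, DESeq2 and library size alone among them. Across 52 lysosomal genes 14 fell and 5 rose, whereas with library size alone as the scaling 7 fell and 10 rose. The falls were 9, 7 and 9 without mock 1, IL-4 1 or IL-4 2, and the rises 3 without mock 1, 8 with DESeq2, 10 with the block or the length offsets, 13 with both and 11 in the KO libraries alone with the block. The 10 most counted genes took 24.0% to 27.0% of the counts in the mock libraries and 19.3% to 20.7% with IL-4. Autophagy genes fell in 8 of 34 and rose in 3 (1 without both libraries of culture 2; 13 and 6 in the KO libraries alone with the block), with Bnip3, Atg101, Map1lc3a and Map1lc3b falling by 1.61-fold, 1.48-fold, 1.44-fold and 1.19-fold.

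Nuclear genes of respiration gave few calls in KO. Of 36 nuclear genes of respiratory complex I, the NADH dehydrogenase, 0 rose and 0 fell in the edgeR test (median -0.05; 8 fell with the block). In the 6 KO libraries alone 1 rose and 5 fell, or 1 and 10 with the block, and with library size alone 1 rose. DESeq2 called 0, and at an unadjusted p under 0.05 there were 1 higher and 6 lower. Without WT mock 2, WT mock 3 or WT IL-4 2 the falls were 1, 1 and 2. In WT the same test called 26 higher and 0 lower, with a median of 0.36. Over all genes it called 13.6% higher and 13% lower in WT. Of 40 nuclear genes of complexes II to V, 5 rose and 1 fell in KO (median 0.07) and 35 rose and 0 fell in WT (median 0.50). The 5 rises were 1, 3, 3 and 2 without mock 2, mock 3, IL-4 2 or IL-4 3, 8 without the IL-4 library of WT culture 2, 8 with library size alone, 9 with the block, 10 in the KO libraries alone, 13 in these with the block and 1 without both KO libraries of culture 2. The fall was absent without mock 1, IL-4 2 or both KO libraries of culture 2, and 2 genes fell with the block. The difference between the genotypes itself was called for 1 gene of complex I and 6 of complexes II to V, all with the lower response in KO. With the block it was called for 28 of 36 and 31 of 40, again all lower in KO, where that fit called 5.14% of all genes lower. Gene length moved with this result, and its part was not tested beyond the offsets: the median length was 1532 bases for complex I and 1793 bases for complexes II to V against 4043 bases over all genes. The rank correlation of the fitted response with gene length over 8126 genes was 0.34 in KO and -0.14 in WT. With offsets for gene length together with the block the difference was called for 10 of 36 and 19 of 40 genes, all lower in KO, where that fit called 3% of all genes lower. With the length offsets alone 4 of the 36 and 21 of the 40 genes rose in KO, and with the block added 4 of the 36 rose, 2 fell and 26 of the 40 rose.

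Cyc1, cytochrome c1 of complex III, shows the pattern in single libraries. It was at 168, 153 and 157 CPM in KO mock and 173, 174 and 162 CPM in KO with IL-4, where the groups overlapped (log2 change 0.09 ± 0.06, adjusted p 0.28), and at 113, 119 and 122 CPM and 183, 198 and 188 CPM in WT, where all IL-4 libraries were higher. The KO response minus the WT response was -0.59 ± 0.09 log2 (adjusted p 0.0148, 0.00124 with the block). KO mock libraries were above WT mock libraries in this gene, and with the length offsets it rose in KO by 0.23 log2 (adjusted p 0.0046). The ATP synthase subunit Atp5b rose in KO, from 842, 848 and 878 CPM to 1029, 1124 and 1085 CPM (log2 change 0.33 ± 0.06, adjusted p 0.000606), and its log2 change in WT was 0.64 ± 0.06. Of the 11 genes of the mitochondrial genome 4 rose in KO and 0 in WT, with medians of 0.39 and -0.04. Of all genes 16% rose in KO and 13.6% in WT. The difference between the genotypes itself was called for 0 of the 11, for 7 with the block and for 10 with the length offsets and the block, all of these with the higher response in KO. In that order, these fits called 0.328%, 6.5% and 3.38% of all genes with the higher response in KO. The KO rises were 7 with DESeq2 or without KO mock 2, WT IL-4 2 or WT IL-4 3, and 8 with the block, with the length offsets or in the KO libraries alone. mt-Nd5 and mt-Cytb went from 57.9, 82.3 and 69.3 CPM to 121, 112 and 120.5 CPM and from 214, 274 and 229 CPM to 358, 351 and 353 CPM, with log2 changes of 0.75 ± 0.17 and 0.57 ± 0.15. The share of mitochondrial counts was 0.129% to 0.167% in KO mock and 0.179% to 0.199% with IL-4.

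**Figure D4:**
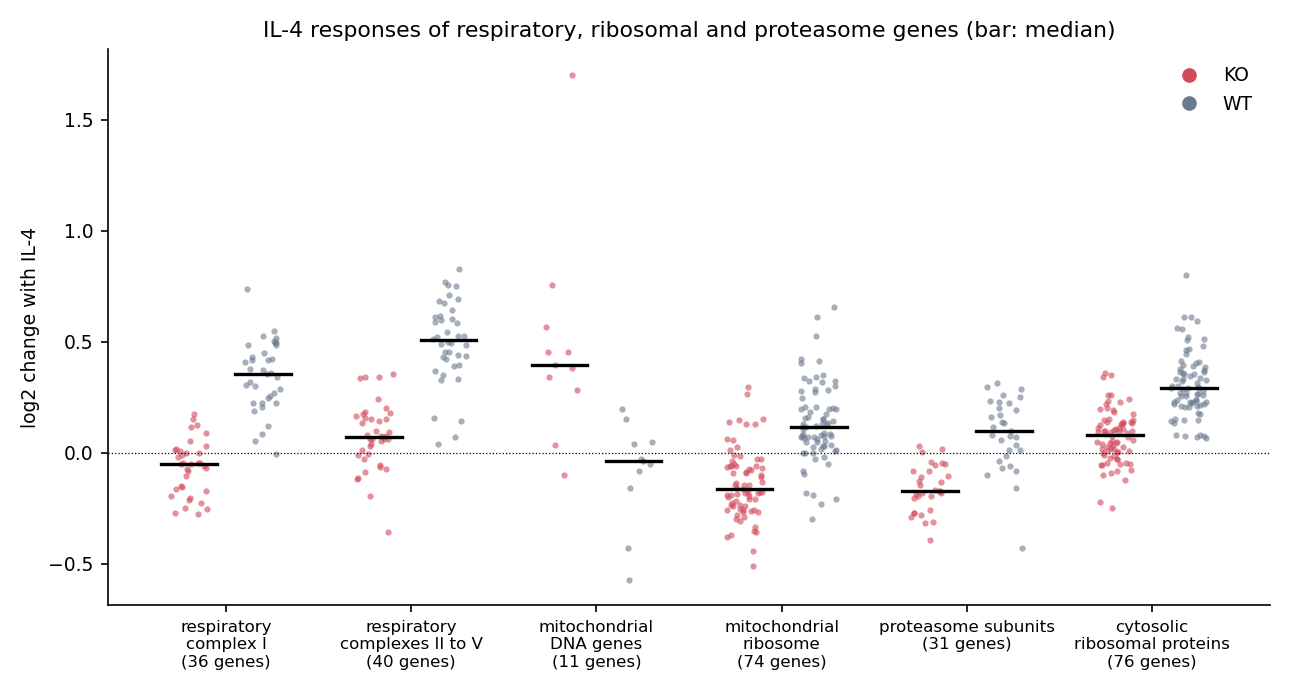
Log2 change with IL-4 of the members of 6 lists in KO (red) and WT (grey), 1 point per gene, with the median as a bar. Medians for respiratory complex I are -0.05 in KO and 0.36 in WT, and for complexes II to V 0.07 and 0.50.

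Mitochondrial ribosomal proteins fell in 13 of 74 measured genes in KO (17.6%, against 14.2% of all genes) and rose in 0 (median -0.17). In WT there were 0 falls and 15 rises, where 13.6% of all genes rose. The difference itself was called for 1 of the 74, for 23 with the block and for 9 with the length offsets and the block, all lower in KO. In that order, these fits called 0.408%, 5.14% and 3% of all genes lower in KO. The KO falls were 5, 7 and 5 without mock 1, IL-4 2 or IL-4 3, 6 without both libraries of culture 2, 8 with library size alone, 7 with the length offsets, 24 with the block and 25 in the KO libraries alone with the block. The KO rises were 3 with library size alone, 4 with the length offsets, 5 with these and the block, 3 in the KO libraries alone with the block, and 1 with the block, DESeq2, the minimum of 1 CPM, the KO libraries alone, or without WT mock 3, WT IL-4 2 or KO IL-4 1. Mrpl33 and Mrpl19 fell by 1.42-fold and 1.36-fold. Proteasome subunits fell in 11 of 31 and rose in 0 (median -0.17); the falls were 5 without mock 1 or IL-4 3 and 7 without mock 3, IL-4 1, IL-4 2 or the mock library of WT culture 1 or with library size alone, and 1 gene rose with the length offsets. Psmd1, a scaffold of the regulatory particle, went from 286, 285 and 299 CPM to 211, 227 and 225 CPM (log2 change -0.39 ± 0.06, adjusted p 0.000209). Cytosolic ribosomal proteins gave 1 rise and 1 fall among 76, 12 rises and 2 falls with the block, 26 rises and 0 falls with the length offsets and 39 and 0 with both. Of all 13715 genes, 2784 rose and 2500 fell with the block, 2368 and 1982 with the length offsets, and 2769 and 2410 with both. In the KO libraries alone 10 rose, or 16 with 2 falls with the block. Without both KO libraries of culture 2 there were 0 rises and 0 falls, with library size alone 2 and 0. The rise was absent without KO mock 2, IL-4 1 or IL-4 3, the rises were 4 without WT IL-4 2, and the fall was absent without WT mock 1, WT IL-4 1, KO mock 1, KO mock 3, any KO IL-4 library or with the minimum of 1 CPM. With library size alone as the scaling, 2513 genes rose and 1493 fell, so that 62.7% of calls were rises rather than 52.9%.

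Most large responses of KO macrophages were also called in WT macrophages. Across the 8126 better-counted genes the responses of the 2 genotypes correlated with r of 0.815, as a description across genes. Of the 223 such genes that rose 2-fold or more in KO, 212 also rose in WT, and of the 72 that fell 2-fold or more, 70 also fell. Over all genes 13.6% rose and 13% fell in WT. The difference between the responses passed the test for 101 genes (0.736% of all), 45 with the KO response above that of WT and 56 below. This count rests on the setting. It was 1596 with the culture number as a block (11.6%), 891 above (6.5%) and 705 below, and 742 with DESeq2. It was 875 with the length offsets and the block (6.38%), 464 of them above (3.38%). It was 0 without the IL-4 library of KO culture 1 and 0 without both KO libraries of culture 2, where 2321 and 2291 genes had an unadjusted p under 0.05 against 2538 in the fit of all libraries. Without any other single library it was between 14 and 102: 14, 102 and 23 without WT mock 1, 2 or 3, 18, 51 and 38 without KO mock 1, 2 or 3, 36, 51 and 96 without WT IL-4 1, 2 or 3, and 26 and 21 without KO IL-4 2 or 3.

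**Figure D5:**
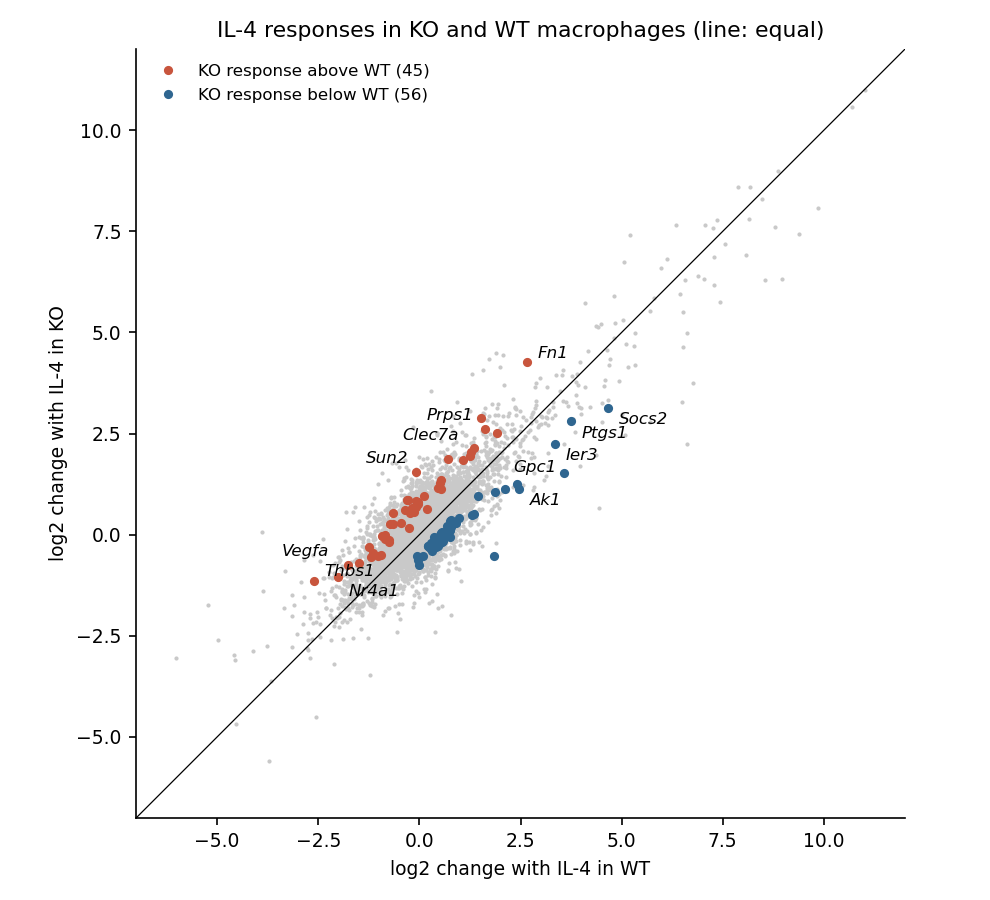
Each point is a gene, placed by its log2 change with IL-4 in WT and in KO; the line marks equal changes, and the 45 genes whose KO response was above and the 56 whose KO response was below the WT response are coloured. Points spread along the line over the whole range.

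Genes with the larger response in KO included Clec7a, with a difference of 0.80 ± 0.12 log2 (adjusted p 0.0148, 0.000439 with the block, range over the alternatives 1.60e-06 to 0.0876). Clec7a was lower in KO mock than in WT mock, 353, 349 and 362 against 546, 465 and 426 CPM, and higher with IL-4, 1574, 1531 and 1576 against 1281, 1098 and 1253 CPM. Prps1, which makes the ribose phosphate donor of nucleotide synthesis, rose to 75, 61.4 and 62.1 CPM in KO and 35.2, 33.2 and 41.8 CPM in WT from 10.9, 11.4 and 10.1 and 10.7, 13.4 and 11.9 CPM (difference 1.0 ± 0.16, adjusted p 0.0171). On the lower side, Socs2 overlapped between the genotypes with IL-4, 12.2, 13.9 and 13.3 CPM in KO and 12.8, 14 and 10.8 CPM in WT, but from 1.64, 1.52 and 1.3 CPM in KO mock and 0.449, 0.509 and 0.506 CPM in WT mock (difference -1.53 ± 0.23, adjusted p 0.0148). Gpc1, the heparan sulfate proteoglycan glypican 1, rose by 1.24 ± 0.13 log2 in KO and 2.42 ± 0.13 in WT (difference adjusted p 0.0148). Ier3 rose by 2.25 ± 0.12 in KO and 3.35 ± 0.13 in WT (difference adjusted p 0.0148), and the adaptor Dok2 by 0.49 ± 0.08 and 1.30 ± 0.08 (difference adjusted p 0.0148). These 6 differences and that of Cyc1 were lost without the IL-4 library of KO culture 1, at an adjusted p between 0.054 and 0.0608, and passed without any other single library.

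Other large differences were less stable, being lost in 3 to 11 of the 12 fits without 1 library, that without the IL-4 library of KO culture 1 included. Above WT were Fn1 (1.61 ± 0.33 log2), Sun2 (1.65 ± 0.33), a protein of the nuclear envelope, the matrix protein Thbs1 (1.48 ± 0.31), the Wnt receptor Fzd1 (1.16 ± 0.22), Vegfa (1.02 ± 0.20), Cap1 (0.97 ± 0.20), an actin regulator, Nr4a1 (0.96 ± 0.19) and Fcgr2b (0.60 ± 0.11). Thbs1 was at 785, 1314 and 962 CPM in KO mock and 391, 594 and 411 CPM in KO with IL-4, and at 112, 77.9 and 109 and 18, 11.5 and 19.5 CPM in WT. Every KO value of Thbs1 was above every WT value, and the gene fell in both genotypes. Vegfa and Nr4a1 also fell in KO. For Thbs1, Vegfa and Nr4a1 a response above that of WT is therefore a smaller fall in KO. Below WT were the adenylate kinase Ak1 (-1.32 ± 0.21), Ptgs1 (-0.94 ± 0.16), the mitochondrial protein Chchd10 (-0.83 ± 0.15), the class II chaperone H2-DMb1 (-0.82 ± 0.15) and Gamt (-0.81 ± 0.16), an enzyme of creatine synthesis, which was not called in KO. All 13 passed the test with the block, with adjusted p from 1.13e-06 for Thbs1 to 0.00659 for Sun2.

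Marker lists of other cell types were measured in part. Of 10 T cell markers 4 were measured, and nearly all of their 279 to 347 CPM in each library was Il7r; the kinase Lck stayed at or under 0.47 CPM. Of 15 neutrophil markers 13 were measured, with a sum of 744.8 to 1281 CPM in mock and 577.6 to 1036 CPM with IL-4, and culture 2 was the highest in both groups. With the block 9 of these 13 fell, against 1 in the fit without it, or 2 without the IL-4 library of culture 2, and 8 fell with the length offsets and the block. In the mast cell and basophil list 6 of 11 were measured, with sums of 1.64 to 10.47 CPM in mock and 1.05 to 10.2 CPM with IL-4, again highest in culture 2. The B cell list, 4 of 10 measured, summed to 12.3 to 18.9 CPM in mock and 3.26 to 6.46 CPM with IL-4, and its Ighm fell from 10.3, 17 and 13.4 CPM to 1.64, 4.49 and 3.22 CPM (log2 change -2.11 ± 0.25, adjusted p 1.81e-05). Of 12 dendritic cell markers 5 were measured; Itgax and Batf3, given above, and Zbtb46 rose, the last from 0.328, 0.387 and 0.181 CPM to 0.682, 1.18 and 1.51 CPM. Of 10 fibroblast markers 5 were measured and summed to 2.65 to 18.2 CPM in mock and 0.62 to 7.94 CPM with IL-4, where culture 1 had 4 of the 5 at 0. Of 7 endothelial markers 3 were measured, with sums of 27.4 to 38.3 CPM in mock and 82.3 to 101.7 CPM with IL-4. The osteoclast list, 8 of 10 measured, went from 1472 to 1592 CPM in mock to 2444 to 2658 CPM with IL-4. The part of these cells in the results above was not tested.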

How the data were processed

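RNA of bone marrow-derived macrophages was sequenced in 12 libraries. The authors deposited 1 table with raw counts per gene and library, log2 CPM and log2 RPKM values, log2 fold changes and p-values with FDR. Per the submitters' processing notes the tools included STAR (version 2.7.2b), bcl2fastq, edgeR, and featureCounts from Subread (version 1.6.5), on mm10. Whether counting used strand is not given in the sources used here, and overlapping and antisense genes and near-identical copies may share reads. Gene lengths in bases are those of the deposited table. An FDR under 0.05 in the authors' deposited table was reached by 4313 genes for IL-4 in KO, 4079 of them with the same direction as here.

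The deposited counts were fitted with edgeR 4.0.16 (TMM factors 0.942 to 1.02, quasi-likelihood test, R 4.3.3) over all 12 libraries with 1 coefficient per group, which left 8 residual degrees of freedom. The test of differing responses was the KO change minus the WT change. filterByExpr removed 0 of 13715 genes. DESeq2 1.42.0 was among 23 alternatives for IL-4 in KO and 21 for the difference between the genotypes, with other scalings, filters, gene length offsets, the culture number as a block and libraries left out. The labels do not say whether numbered libraries are separate mice, and the spread behind each p-value may therefore be technical. In Lyz2, both KO libraries of culture 2 (43.1 and 43.4 CPM) differed from those of cultures 1 and 3 (15362 to 21618 CPM). Whether the marrow of culture 2 had another source was not tested. Deviations from the group means of same-numbered KO mock and IL-4 libraries correlated with r of 0.551, 0.579 and 0.518 over 8126 genes. With other numbers r was -0.48 to -0.173, so the numbers pair the KO libraries. In WT the same-numbered values were 0.229, 0.491 and 0.406 and the others -0.499 to 0.269. The 0.269, of WT mock 3 with WT IL-4 1, was above the 0.229 of culture 1. Pairing in WT is therefore less clear, and the differences between the genotypes called with the block rest on it.

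Gene names come from the table. Genes were named from among the 14 largest rises and falls whose log2 CPM averaged at least 3 in KO, with groups that do not overlap, up to 4 members per list by adjusted p, genes near 0 in mock, the 6 most counted genes, the 8 largest differences from WT in each direction, the members of 3 IL-4 lists and cell type markers. Not every gene of these groups is printed: in the lists, members without a sentence of their own are given as counts. Cyc1 was chosen after its values were seen. The members and the lists were chosen with earlier results of these data known.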

Additional observations from a re-analysis of the deposited data

Results flagged for a closer look

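The response to IL-4 differed between the genotypes, by the edgeR test of the difference itself, for 20 of the genes named. Values are the KO log2 change minus the WT log2 change. For Thbs1, Vegfa and Nr4a1, which fell in KO, a value above 0 is a smaller fall than in WT. The KO response was above that of WT for Sun2 (1.65), Fn1 (1.61), Thbs1 (1.48), Fzd1 (1.16), Vegfa (1.02), Prps1 (1.0), Cap1 (0.97), Nr4a1 (0.96), Clec7a (0.80) and Fcgr2b (0.60). It was below that of WT for Socs2 (-1.53), Ak1 (-1.32), Gpc1 (-1.18), Ier3 (-1.1), Ptgs1 (-0.94), Chchd10 (-0.83), H2-DMb1 (-0.82), Dok2 (-0.81), Gamt (-0.81) and Cyc1 (-0.59). None of the 20 passed without the IL-4 library of KO culture 1 or without both KO libraries of culture 2 in edgeR's test, where 2321 and 2291 genes had an unadjusted p under 0.05.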

How the results depend on the processing

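The count of genes changed by IL-4 in KO stayed within 1.5 times of 4152 under all 23 alternatives, from 2930 without both libraries of culture 2 to 5664 in the 6 KO libraries alone with the block; leaving out 1 library gave 3062 to 4641 (rises 1673 to 2422, falls 1349 to 2219). With library size alone 62.7% of calls were rises rather than 52.9%, and the median of all genes shifted by 0.06 log2. Of 207 genes named, 198 kept their call and direction under every alternative. Many of these genes were picked for a large change or a small adjusted p, which favours such a result. Of all 4152 calls, 2836 were shared in the same direction without both libraries of culture 2. Without KO mock 1 it was 2962, and with the length offsets 3565. Uncalled genes changed sign when 1 library was left out: the log2 change of Lyz2 ranged from -1.04 to 0.131, that of Il7r from -0.0547 to 0.116 and that of Lck from -0.207 to 0.473. For Gamt it ranged from -0.145 to 0.0338, and it was 0.00218 with library size alone, 0.0973 with length offsets and 0.0996 with these and the replicate block.

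The 101 differences between genotypes depended on the setting. DESeq2 gave 742 (317 above WT, 425 below), library size alone 65 (24 below), the replicate block 1596 (891 and 705), length offsets with the replicate block 875 (464 and 411), and the fit without both KO libraries of culture 2 gave 0. Leaving out 1 library gave 0 to 102 (0 to 32 above, 0 to 75 below). The replicate block changed the calls and list counts given beside it, and no other call of a gene named. The causes were not tested. Depth limits genes near 0 in mock, whose folds are bounds or ratios with counting intervals.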

Other observations

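Gene families grouped by the start of their symbols, chosen after the values were seen, moved as follows with IL-4 in KO. Of 15 glutathione S-transferases 7 fell and 0 rose (median log2 change -0.42), with 6 to 8 falls when 1 library was left out. Of 7 guanylate-binding proteins, interferon-inducible GTPases, 4 rose and 0 fell (median 1.04). Potassium channel genes rose in 8 of 22 and fell in 2. Solute carriers, the transporters of small molecules, were split, with 46 of 215 higher and 48 lower. Shares over all genes were 16% higher and 14.2% lower.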
